A study of Mus musculus with 4 samples.

Results

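The genes described here make cholesterol, sense it and move it. They are 18 enzymes of the synthesis pathway, 5 genes of the SREBP system that sets their transcription, 4 genes of the LXR system and 3 sterol transport genes. All genes whose name in both deposited tables matched this list of 30 were taken, which gave 30 of the 20385 genes listed in both tables. They were measured at embryonic day 16 in the dissected cortex of C57BL/6 mice, in wild type (WT) embryos and in embryos labelled Cd93 KO. Cd93 encodes a transmembrane lectin receptor known mainly from endothelial cells, and the study title places it upstream of astrocyte formation. Both genotypes are of the same strain and stage, and no treatment is given. Which part of Cd93 was deleted, and in which cells, is not given in the sources used here.

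Cells build cholesterol from acetyl-CoA through mevalonate, farnesyl diphosphate, squalene and lanosterol. When sterols in the endoplasmic reticulum are low, SCAP carries the SREBP proteins to the Golgi, where they are cleaved into transcription factors that raise the synthesis genes; INSIG proteins hold SCAP back when sterols are high. Surplus cholesterol is turned into oxysterols, which activate the LXR receptors and, through them, the exporters ABCA1 and ABCG1. The brain makes its own cholesterol as the blood-brain barrier closes, and growing neurons and dividing radial glia need it for membrane.

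The promoters of the enzymes shared a short sequence that the choice of genes did not use. RefSeq promoter windows (build GRCm38.p6, 250 bases before to 50 bases after a start) were matched by symbol for 24 of the 30 genes; Fdft1, Fdps, Sqle, Npc1, Abcg1 and Stard4 had no entry. Each window was searched on both strands for CCAAT, the box bound by the factor NF-Y, which acts with SREBP at several of these genes. CCAAT was present for 14 of the 15 enzymes with a window, the exception being Acat2, and for 19 of all 24 genes. For comparison, 42.6% of the 11322 tested genes with a window held it. A gene can have several windows. Counted by window, CCAAT was in 14 of 18 enzyme windows, 20 of 33 windows of the 24 genes and 37.4% of all 32851 windows. The box nearest to the start lay 7 to 57 bases before it in 13 of the 14 enzymes and 131 bases before it in Pmvk. The next 9 sequences show it for enzymes from the start, the middle and the end of the pathway, with Pmvk as the exception, and for the regulator Srebf2. They are printed 5′ to 3′ on the strand that reads CCAAT, with the box in capitals.
Mvk, chr5:114444245-114444269, minus strand: cttcctgaggCCAATcagagagctg
Pmvk, chr3:89454395-89454419, plus strand: ctcaggttggCCAATtcacagcatc
Mvd, chr8:122443435-122443459, minus strand: ggccagcgggCCAATcatatggcag
Idi1, chr13:8885582-8885606, minus strand: cggtcgccagCCAATggcaccttgg
Lss, chr10:76531533-76531557, minus strand: gcgagctcggCCAATcagagcatca
Cyp51, chr5:4104712-4104736, minus strand: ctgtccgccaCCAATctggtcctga
Sc5d, chr9:42264310-42264334, plus strand: aggcagccggCCAATcagcagccgg
Dhcr7, chr7:143830155-143830179, minus strand: tcacagacgaCCAATcggaagtgga
Srebf2, chr15:82147124-82147148, minus strand: cttgcattagCCAATcggcgcgcga

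In Srebf2 the box lay 130 bases before the start. These starts are those of RefSeq. The printed boxes of Idi1, Cyp51 and Dhcr7 lay inside the annotated gene, that of Dhcr7 far from its first base at chr7:143823145. Bases 21 to 45 after the start were in a GENCODE transcript of the gene for 29 of the 33 windows of the 24 genes. The sterol response element TCACNCCAC was found in the window of Hmgcs1 alone among the 24 genes. For comparison, 1.43% of tested genes with a window held it. Counted by window, it was in 1 of the 33 windows of the 24 genes and 1.24% of all windows. The 250 bases before the Hmgcs1 start are shown because they hold both motifs, 3 CCAAT boxes on the minus strand (read as ATTGG on the plus strand) and 1 TCACCCCAC 128 bases before the start, with none of the matches overlapping (capitals mark all 4).
Hmgcs1, chr13:119690101-119690350, plus strand: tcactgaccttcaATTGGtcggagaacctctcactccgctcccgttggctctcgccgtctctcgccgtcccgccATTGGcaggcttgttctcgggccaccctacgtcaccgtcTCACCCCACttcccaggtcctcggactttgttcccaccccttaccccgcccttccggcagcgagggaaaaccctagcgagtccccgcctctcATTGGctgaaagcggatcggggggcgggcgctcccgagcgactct

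The windows were also searched on both strands for 2 other motifs. The GC box GGGCGG, bound by SP1, was in the windows of 21 of the 24 genes and of 68.0% of tested genes. The E-box CACGTG was in those of 6 of the 24 (Abca1, Dhcr7, Hsd17b7, Insig1, Sc5d and Scap) and of 11.3% of tested genes. A match describes the letters of a window and is not a bound site.

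Total RNA from dissected cortex was made into libraries with an Illumina TruSeq kit, and 4 libraries are given here: WT 1, WT 4, KO 5 and KO 6. The design text mentions triplicates. The labels do not say that each came from its own embryo, so p-values measure the spread between these libraries, which may be technical. No library number is shared between the genotypes. Table A, as the authors deposited it, holds KO 6 and WT 1, and table B holds KO 5 and WT 4. The libraries held 16318317 to 17586157 counts. Cd93 was present at 38.3 and 24.0 CPM (counts scaled to library size) in WT 1 and WT 4 and at 6.34 and 6.10 CPM in KO 5 and KO 6, with the groups apart (edgeR log2 fold change -2.32, adjusted p = 0.211). Cortical markers were high in all 4 libraries, with Neurod6 at 1422 to 1667 CPM and Slc1a3 at 145 to 166 CPM. WT 1 stood apart from the other 3 libraries: the meninges and fibroblast markers summed to 802 CPM there against 56.1 to 117 CPM elsewhere, and the ganglionic eminence markers to 900 CPM against 322 to 481 CPM. Results that rest on WT 1 are given with and without it. In bulk tissue, fewer cells of a type and less RNA per cell cannot be told apart.

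All 30 genes had enough counts to be tested, and none passed. In the quasi-likelihood test of edgeR, adjusted by Benjamini-Hochberg over 16371 genes, 0 of 30 had an adjusted p under 0.05, where 2 genes in all did (0.0122%). At an unadjusted p under 0.05 there was 1 of 30, Cyp51, against 317 of all genes (1.94%). DESeq2 (0.0489% of all genes called), limma-voom and an edgeR fit with the deposited table as a block (0.177%) also called 0 of the 30. Both KO libraries lay above both WT libraries for 2 of the 30, Fdps and Cyp51 (11.5% of all genes did), and below them for 4, Insig2, Abca1, Abcg1 and Stard4 (11.9%). The first count is under and the second near the share of all genes. Abca1 enters the second by a near tie, at 46.8 CPM in both WT 4 and KO 5.

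The differences were small as well as uncalled. The median size of the log2 fold change was 0.04 over the 30, against 0.09 over all tested genes and 0.06 over the 10264 genes with a mean of at least 10 CPM. The 95% interval of the fold lay within 1.5-fold in both directions for 25 of the 30 (83.3%); for the 27 members with at least 10 CPM it did so for 24 (88.9%), close to the 84.9% of all genes at that level. The exceptions were Fdps, Cyp51, Nr1h3, Abca1 and Abcg1. The median log2 fold change was 0.02, with 19 genes higher and 11 lower in KO; without WT 1 it was -0.03, with 10 higher and 20 lower. Between the tables, 6 genes were higher in KO in both, 6 lower in both and 18 opposite. Abca1 counts as lower in both, though its table B log2 ratio was -0.0002. The 30 genes summed to 2112 and 2210 CPM in the libraries WT 1 and WT 4, and to 2192 and 2187 CPM in KO 5 and KO 6.

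**Figure D1:**
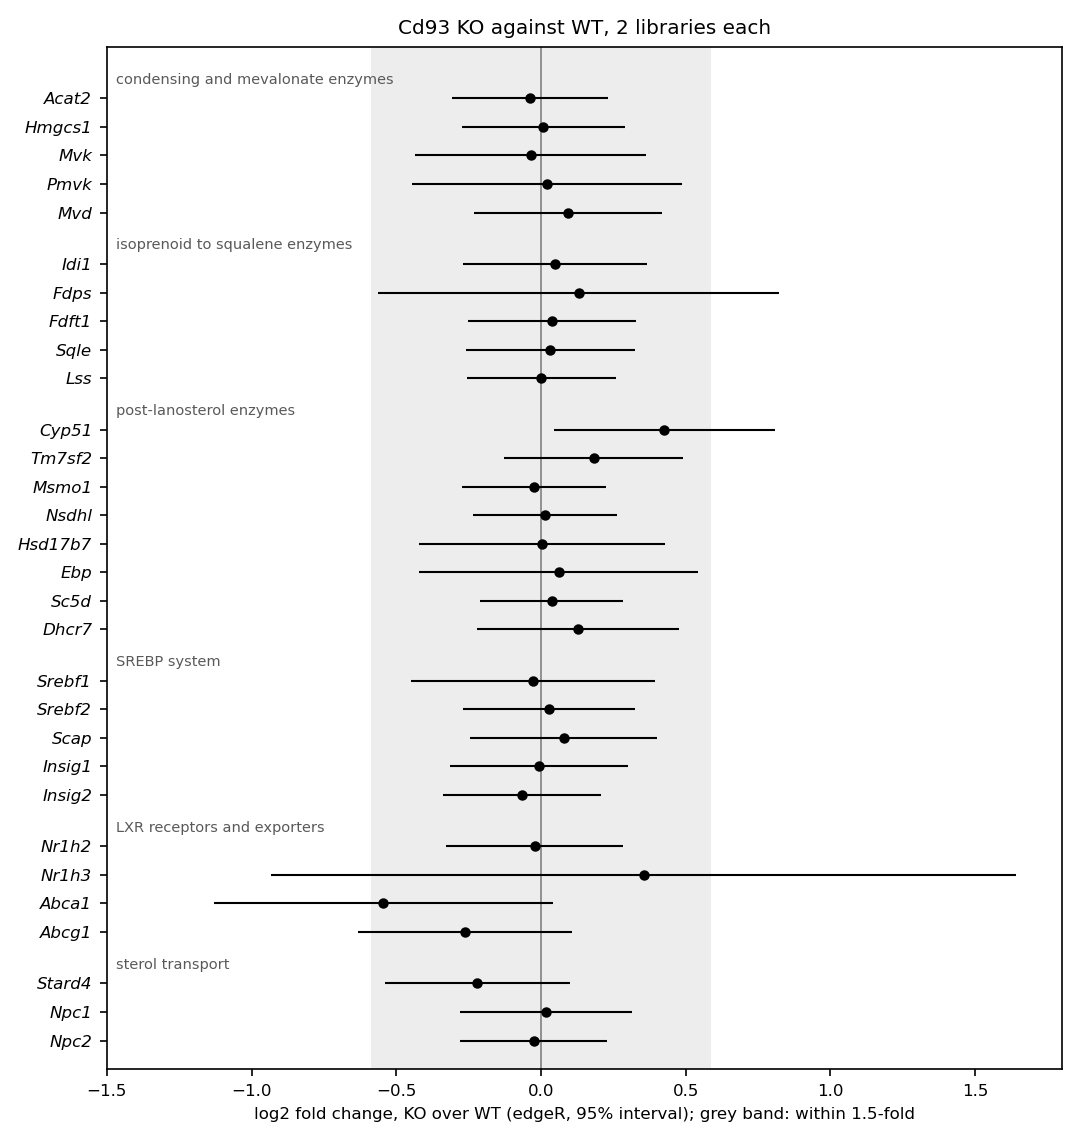
Log2 fold change of KO over WT for each of the 30 genes with its 95% interval, from edgeR on 2 libraries per genotype; the grey band marks changes within 1.5-fold. The interval of Cyp51 is the one that does not include 0, and that of Nr1h3 is the widest.

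Transcript levels between genes were compared as CPM per kilobase of the reference transcript, the mean of 4 libraries with the range in parentheses. Hmgcs1, which makes HMG-CoA, was the highest of the 30 at 76.5 (71.2 to 82.1), followed by Acat2 at 60.4 (56.6 to 64.2), whose product feeds it, and by Fdft1, squalene synthase, at 52.3 (49.2 to 56.8). Srebf2, the main SREBP gene for cholesterol synthesis, came next at 51.8 (48.2 to 56.5), above Srebf1 at 19.9 (16.1 to 23.3). The lowest were Nr1h3 at 0.996, which encodes LXR alpha, Fdps at 2.15 (1.96 to 2.27) and Abcg1 at 2.75 (2.42 to 3.15). Nr1h2, which encodes LXR beta, stood at 38.0 (33.6 to 41.8), so that the LXR beta transcript exceeded the LXR alpha transcript in every library.

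Of the 29 pairs of neighbours in this order, 18 had ranges that overlapped. Overlap does not make the genes of a pair equal, since both were read in the same libraries. Npc2 was above Sqle in every library, and Sqle above Nr1h2 in every library, though these ranges overlapped. From Sqle at 42.7 down to Scap at 18.7 each gene overlapped the next. The ranges separated for 11 pairs, among them Hmgcs1 and Acat2, each step of the run from Lss (14.7) through Sc5d (13.0), Insig2 (11.8), Idi1 (8.07) and Npc1 (6.81), and Fdps and Nr1h3. The order depends on the length used. With the length of all exons of a gene in place of the reference transcript, Cyp51 moved from place 12 to 6, Tm7sf2 from 8 to 16, Msmo1 from 10 to 18, Dhcr7 from 9 to 20, Lss from 19 to 22 and Npc1 from 23 to 26. Lss was then below Sc5d, Insig2 and Idi1, at 6.37 CPM per kilobase of exon against 12.8, 9.16 and 6.97, and Fdps was below Nr1h3, at 0.707 against 0.774. Hmgcs1, Acat2, Fdft1, Srebf2 and Npc2 kept places 1 to 5. The levels of Acat2, Fdft1, Hmgcs1 and Fdps carry the added uncertainty of sequence shared with other genes.

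**Figure D2:**
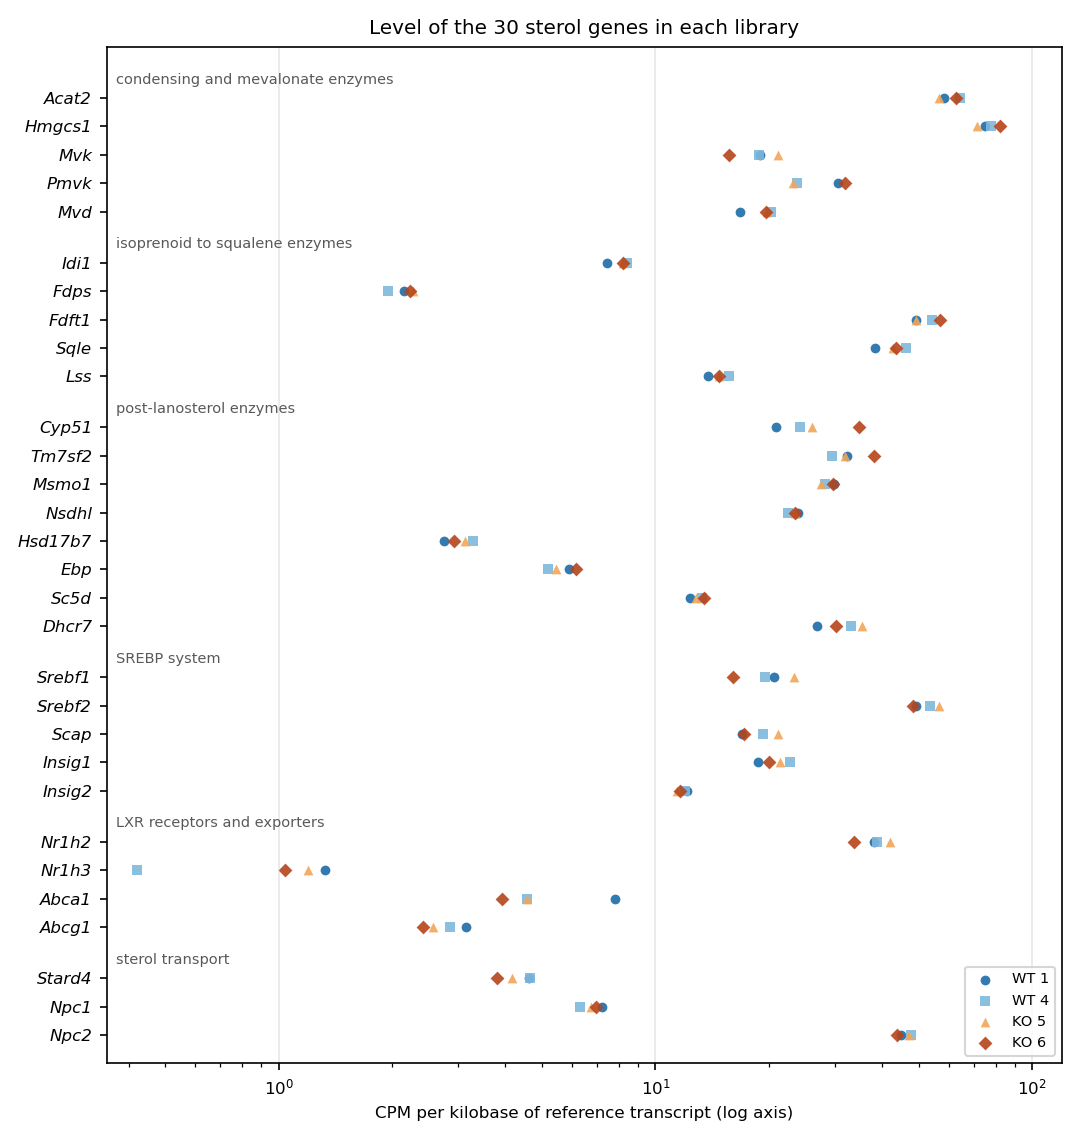
Level of each gene in each of the 4 libraries, as CPM per kilobase of reference transcript on a log axis, ordered by step of the pathway. The 4 libraries lie close together for most genes, and the widest spreads are those of Nr1h3 and Abca1.

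The enzymes that condense acetyl-CoA and build mevalonate phosphates did not separate the genotypes. Acat2 and Hmgcs1, the first members of the route, had log2 fold changes of -0.04 and 0.01. Hmgcs1 (chr13:119690379-119708260, plus strand, GRCm38) was at 259 and 269 CPM in WT 1 and WT 4 and at 247 and 285 CPM in KO 5 and KO 6. The KO libraries were the lowest and the highest, with both WT libraries between them, and the 95% interval of the fold was 0.828 to 1.22. Mvk and Pmvk, the kinases that phosphorylate mevalonate, had log2 fold changes of -0.04 and 0.02. Mvk was at 30.4, 30.3, 33.97 and 25.1 CPM in WT 1, WT 4, KO 5 and KO 6, with the KO libraries on either side of WT. Pmvk was at 36.3, 28.4, 27.7 and 38.0 CPM in the same order, so that each deposited table held 2 similar values and the tables differed. Mvd, the decarboxylase that makes isopentenyl diphosphate, was at 29.4 and 35.5 CPM in WT and at 34.7 and 34.5 CPM in KO (log2 fold change 0.09, SE 0.14). Its groups overlapped. All 5 genes of this step had opposite signs in the 2 tables.

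From isopentenyl diphosphate to lanosterol the log2 fold changes were 0.00 to 0.13, with 5 of 5 above 0, a median of 0.04 and 0 called. Without WT 1 only Fdps was above 0, 1 of 5, and the median was -0.04. Idi1, the isomerase, was at 22.6 to 25.5 CPM in all libraries. Fdft1, which commits farnesyl diphosphate to sterols, was at 182 and 200 CPM in WT 1 and WT 4 and at 182 and 210 CPM in KO 5 and KO 6. Its groups overlapped, with a fold interval of 0.840 to 1.26. Sqle, squalene epoxidase, was at 106 and 127 CPM in WT and 118 and 120 CPM in KO, and both KO values lay between the WT values. Lss, which closes the ring to lanosterol, did the same at 64.2 and 73.1 CPM in WT and 68.7 CPM in both KO libraries.

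Fdps, farnesyl diphosphate synthase, was counted low: WT 1, WT 4, KO 5 and KO 6 held 53, 46, 55 and 50 of its counts, or 2.98, 2.70, 3.14 and 3.08 CPM. KO was above WT in both libraries, with a log2 fold change of 0.13 and a 95% interval of -0.56 to 0.82. This level is uncertain. Of the 25-base words of the Fdps reference transcript, 90.2% also occurred in other genes, 79.5% in the overlapping Gm43738 on the same strand and 56.3% in the processed pseudogene Gm3571. Gm3571 itself was listed with 117, 140, 102 and 122 counts, more than Fdps in every library. How the authors counted reads that match several genes is not given in the sources used here, so the low level of Fdps cannot be told apart from reads lost to its copies. Without Fdps the median log2 fold change of the other 29 genes was 0.02.

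After lanosterol, 7 of 8 genes were higher in KO and 1 lower. Their median log2 fold change was 0.05, and 0 were called. Without WT 1, 5 of the 8 were higher, with a median of 0.04. Cyp51 (ENSMUSG00000001467, chr5:4081145-4104746, minus strand, GRCm38) was the most abundant of them by CPM. It encodes lanosterol demethylase, the first step after the ring closes. It was at 82.3 and 95.3 CPM in WT 1 and WT 4 (88.8 ± 9.21, SD, n = 2) and at 102.5 and 136 CPM in KO 5 and KO 6 (119.4 ± 24.0, SD, n = 2). Both KO libraries were above both WT libraries, with KO 6 the highest by a wide margin and KO 5 close to WT 4. The log2 fold change was 0.43 (SE 0.16, 95% interval 0.04 to 0.81), a 1.34-fold difference with an unadjusted p of 0.0339 by edgeR, rank 182 of 16371 genes, and an adjusted p of 0.9999.

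The Cyp51 difference was larger in 1 table than in the other. Table A gave a log2 ratio of 0.73 and table B one of 0.10. Without KO 6 the log2 fold change was 0.21, without KO 5 it was 0.62, without WT 1 0.33 and without WT 4 0.54, and the smallest adjusted p over these and all other alternatives was 0.215. Between KO 6 and KO 5 the log2 ratio was 0.41, though a ratio of single libraries varies more than a fold between means. In the authors' deposited table A, Cyp51 had a log2 fold change of 0.70 with an adjusted p of 1.85e-46 and was not marked as significant; that p compares 1 library with 1 library. Akap9 overlaps Cyp51 by 166 exon bases on the opposite strand.

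The next enzymes showed smaller differences. Tm7sf2, a sterol reductase, was at 47.4 and 43.4 CPM in WT 1 and WT 4 and at 46.9 and 56.0 CPM in KO 5 and KO 6 (log2 fold change 0.18, SE 0.13). KO 6 was above the other 3 libraries, which overlapped. Dhcr7, the reductase of the last step, mutated in Smith-Lemli-Opitz syndrome, was at 44.5 and 54.8 CPM in WT and 58.6 and 49.8 CPM in KO (log2 fold change 0.13, SE 0.15). Its groups overlapped and its highest and lowest libraries were KO 5 and WT 1. Msmo1, Nsdhl, Hsd17b7, Ebp and Sc5d, which demethylate, isomerise and desaturate the ring, had log2 fold changes of -0.02 to 0.06, and each of their intervals lay within 1.5-fold.

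Over all 18 enzymes, 15 log2 fold changes were above 0 and 3 below, with a median of 0.03 against 0.00 over all tested genes. The enzymes summed to 1233 and 1324 CPM in the libraries WT 1 and WT 4, and to 1268 and 1392 CPM in KO 5 and KO 6, so that the groups overlapped. Table A gave a median of 0.12 and table B one of -0.04. Of the 18 enzymes, 12 had opposite signs in the tables. Without WT 1, 7 of the 18 were above 0 and the median was -0.02, so the count of 15 in 1 direction rests on that library. WT 1 was the lowest library for the summed enzymes, and it was also the one with the lowest summed neuron markers, at 9172 CPM against 10003 to 10385 CPM; the part of this in the result was not tested.

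**Figure D3:**
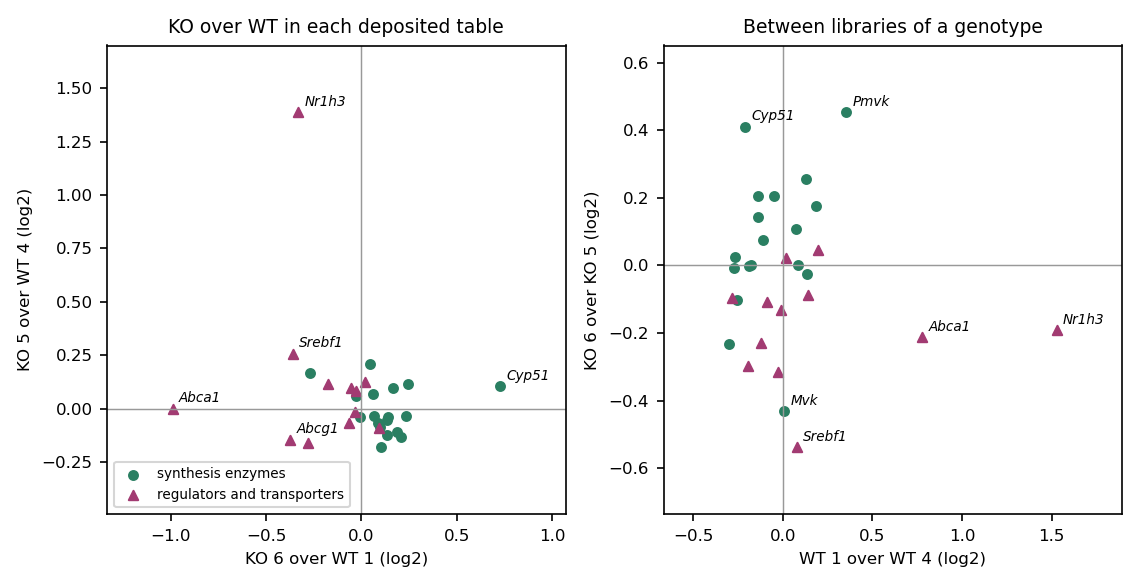
Log2 ratios of single libraries for the 30 genes: KO over WT in table A (x axis) against table B (y axis) on the left, and WT 1 over WT 4 (x axis) against KO 6 over KO 5 (y axis) on the right. Circles are enzymes and triangles are regulators and transporters. In the left panel most enzymes lie near 0 on the y axis, and Nr1h3, Abca1 and Cyp51 lie farthest out. In the right panel Nr1h3, Abca1, Pmvk and Srebf1 lie farthest out.

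The SREBP system showed no called gene, with 2 of 5 above 0 and a median log2 fold change of -0.01. Srebf2 was at 250 and 271 CPM in WT 1 and WT 4 and at 287 and 245 CPM in KO 5 and KO 6. The KO libraries were again the highest and the lowest, with a fold interval of 0.831 to 1.25. Srebf1, whose product acts more on fatty acid genes, was at 88.7 and 83.9 CPM in WT and at 100.3 and 69.0 CPM in KO. The KO libraries differed 1.45-fold from each other, with WT between them, and the log2 ratio of KO over WT was -0.36 for table A but 0.26 for table B. Scap was at 71.6 and 81.8 CPM in WT and at 89.3 and 72.6 CPM in KO, with KO 5 the highest and KO 6 close to the lowest library, WT 1.

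The INSIG genes encode the proteins that retain SCAP. Insig1, itself a target of SREBP, was at 50.5 and 61.4 CPM in WT and at 57.6 and 53.9 CPM in KO, both KO values lying between the WT values. Insig2 was at 32.7 and 32.3 CPM in WT and at 30.8 and 31.3 CPM in KO. KO was below WT in both libraries, but the log2 fold change was -0.07 with a fold interval of 0.791 to 1.15.

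The split of Srebf1, Srebf2, Scap, Mvk and Nr1h2 between the KO libraries went with the base composition of their transcripts, as seen after their values were known. These 5 had a GC content of 57.9% to 60.6%, and their log2 ratios of KO 6 over KO 5 were -0.54, -0.23, -0.30, -0.43 and -0.32 in that order. Over the 10258 genes with at least 10 CPM and a reference transcript, the KO 6 over KO 5 ratio had a Spearman rho of -0.431 with GC content, and over the 30 genes -0.447; the points share 2 libraries, so no p is given. For WT 1 over WT 4 the values were -0.013 and 0.106. Within the deposited tables they were 0.457 and 0.58 for KO 5 over WT 4, and -0.183 and -0.196 for KO 6 over WT 1. Pmvk, with 57.0% GC, was higher in KO 6 at 0.45, Mvd, with 59.3% GC, was at -0.01, and Cyp51, with 46.2% GC, was at 0.41. After a GC offset, chosen after seeing the data, the ratio of KO 6 over KO 5 was -0.39 for Srebf1, -0.09 for Srebf2, -0.14 for Scap, -0.26 for Mvk, -0.13 for Nr1h2, 0.57 for Pmvk and 0.37 for Cyp51. Over the 30 genes the offset changed little: the median size of the KO 6 over KO 5 ratio went from 0.139 to 0.127. That of WT 1 over WT 4 went from 0.141 to 0.151. The KO over WT log2 fold change of Cyp51 was 0.43 with the offset too.

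**Figure D4:**
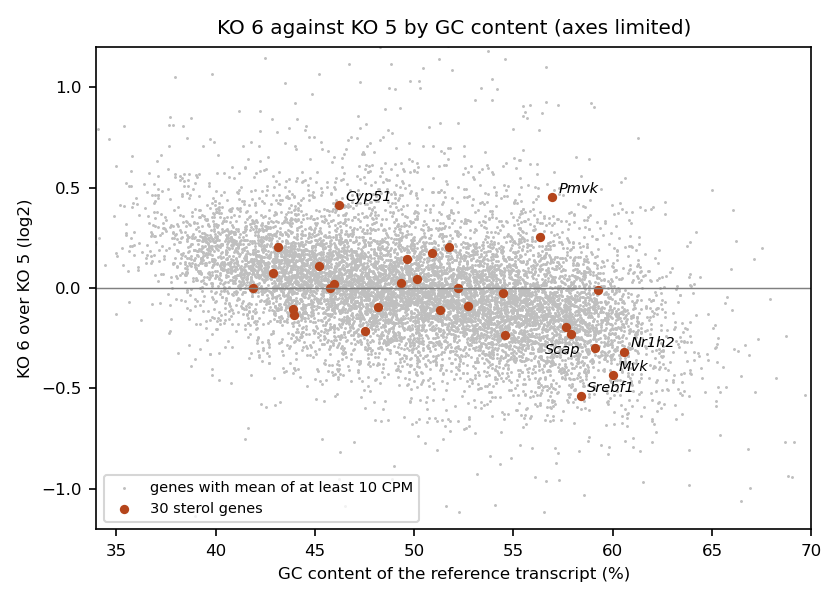
Log2 ratio of KO 6 over KO 5 (y axis) against the GC content of the reference transcript in percent (x axis), for genes with a mean of at least 10 CPM (grey) and the 30 sterol genes (red); 55 of 10258 genes lie beyond the axes. Srebf1, Mvk, Nr1h2 and Scap sit at high GC content and below 0, while Pmvk and Cyp51 sit above 0.

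The LXR receptors and exporters had 3 of 4 log2 fold changes below 0, with a median of -0.14 and 0 called. Nr1h2 was at 75.8 and 77.3 CPM in WT and at 83.6 and 67.1 CPM in KO, with WT between the KO libraries. For Nr1h3, WT 1, WT 4, KO 5 and KO 6 held 46, 14, 41 and 33 counts, or 2.59, 0.822, 2.34 and 2.03 CPM. WT 4 was 2.88-fold below WT 1, both KO libraries lay between them, and the log2 fold change of 0.35 had an interval of -0.93 to 1.64. In the authors' deposited table B, Nr1h3 was the 1 gene of the 30 marked as significant (2.31% of all its genes were), with a log2 fold change of 1.52 and an adjusted p of 0.00375.

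Abca1 (ENSMUSG00000015243, chr4:53030787-53159895, minus strand, GRCm38) encodes the transporter that loads cholesterol onto apolipoproteins. It was at 80.2 CPM in WT 1 (1426 counts) and 46.8 CPM in WT 4 (796 counts), and at 46.8 CPM in KO 5 (819 counts) and 40.3 CPM in KO 6 (654 counts). WT 1 was far above the other 3 libraries, and WT 4 and KO 5 were equal to 3 digits, so that the groups touched. The WT mean was 63.5 ± 23.7 CPM and the KO mean 43.5 ± 4.56 CPM (SD, n = 2). The log2 fold change was -0.54 (SE 0.24, 95% interval -1.13 to 0.04, edgeR unadjusted p = 0.0639, adjusted p = 0.9999), with -0.99 in table A and -0.00 in table B.

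The Abca1 value rests on WT 1. Without WT 1 the log2 fold change was -0.10, with an edgeR adjusted p of 0.9999. Without WT 4 it was -0.88, with an edgeR adjusted p of 0.00189, and Abca1 was then the 1 gene of the 30 called, where 1.82% of all genes were; the lone WT library is there assumed to vary like the KO libraries. In the authors' deposited table A, Abca1 was the 1 gene of the 30 marked as significant (4.67% of its genes were), with a log2 fold change of -1.02 and an adjusted p of 5.99e-52. In the authors' deposited table B its log2 fold change was 0.01 with an adjusted p of 0.804.

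WT 1 was the highest library for Abca1 and for the summed markers of each of the next 6 lists. The KO libraries were ordered differently: Abca1 was lower in KO 6 than in KO 5, while each of the 6 sums was higher in KO 6. Of the meninges and fibroblast list, 10 of 10 tested genes were lower in KO, with summed levels of 802 and 117 CPM in WT 1 and WT 4 and 56.1 and 110 CPM in KO 5 and KO 6. The microglia and macrophage list had 12 of 12 lower, at 110 and 59.6 CPM in WT and 53.3 and 57.8 CPM in KO, and the pericyte list 8 of 8 lower, at 300.2 and 183 CPM and 181 and 209 CPM. The endothelial list had 11 of 12 lower, at 298 and 176 CPM in WT and 183 and 189 CPM in KO. The ganglionic eminence list had 12 of 12 lower, at 900 and 471 CPM in WT and 322 and 481 CPM in KO. The choroid plexus list had 3 of 5 lower, at 44.4 and 10.6 CPM in WT and 13.5 and 28.4 CPM in KO. All these counts include WT 1. Table B does not hold it, and its median log2 ratios of KO 5 over WT 4 were smaller in size than those of table A for each of these lists. They were -1.21 for meninges and fibroblast, -0.38 for microglia and macrophage and -0.10 for pericyte. For endothelial, ganglionic eminence and choroid plexus they were 0.02, -1.15 and 0.35. No listed marker was at 0 in a library. The values of some defining markers follow for WT 1, WT 4, KO 5 and KO 6, in that order. Col1a1 was at 81.8, 22.6, 8.96 and 8.63 CPM, Mrc1 at 20.5, 2.00, 1.199 and 2.90 CPM and Cdh5 at 36.1, 13.5, 12.5 and 13.3 CPM. Ttr, of the choroid plexus list, went the other way at the top, at 10.015, 0.47, 0.97 and 13.7 CPM. Its highest library was KO 6 and not WT 1. The part of these cells in the Abca1 values was not tested.

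**Figure D5:**
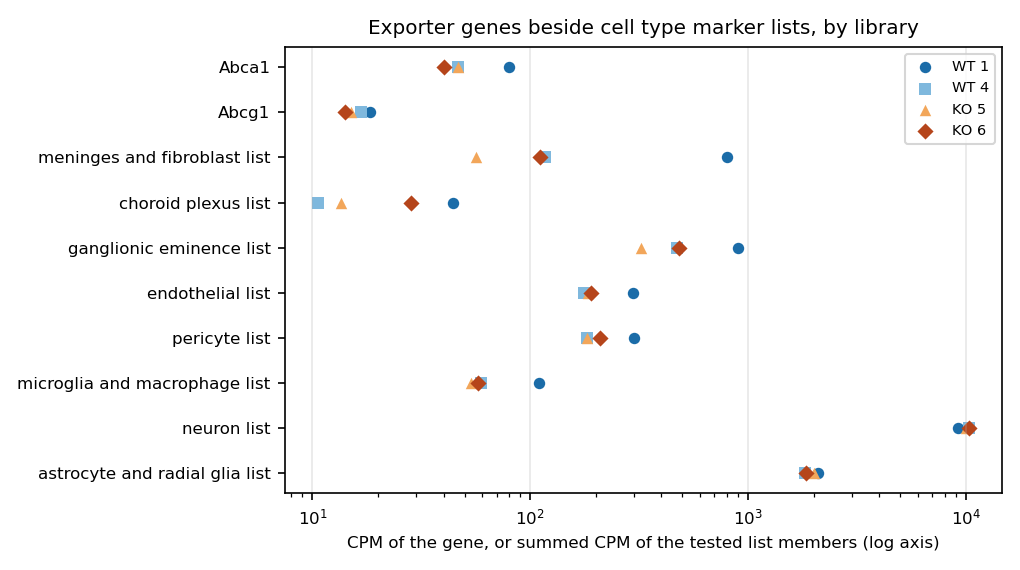
Level of Abca1 and Abcg1 and summed level of 8 marker lists in each of the 4 libraries, in CPM on a log axis. WT 1 is the highest library for Abca1, Abcg1 and each list except that of neurons, where it is the lowest.

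Abcg1, which exports cholesterol to lipoproteins and is also made by neurons and astrocytes, was at 18.3 and 16.6 CPM in WT 1 and WT 4 and at 15.01 and 14.1 CPM in KO 5 and KO 6. The groups did not overlap, and both tables had the same sign, -0.38 and -0.15. The log2 fold change was -0.26 (SE 0.15, 95% interval -0.63 to 0.11) and ranged from -0.33 to -0.19 when each library was left out in turn. It did not pass in any of these fits, and the marker values given for Abca1 stand beside it too.

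Among the transport genes, Stard4 had the clearest separation. It encodes a carrier of cholesterol between membranes inside the cell and is a known SREBP target. It was at 23.6 and 23.7 CPM in WT 1 and WT 4 and at 21.2 and 19.4 CPM in KO 5 and KO 6. The WT libraries were nearly equal and both KO libraries lower, with log2 ratios of -0.28 (table A) and -0.16 (table B). The log2 fold change was -0.22 (SE 0.13, 95% interval -0.54 to 0.10) and ranged from -0.29 to -0.15 with each library left out, with the smallest adjusted p over all alternatives at 0.9995. Npc2, the soluble protein that takes cholesterol out of lysosomes together with NPC1, was at 148 and 157 CPM in WT and 155 and 144 CPM in KO. Its groups overlapped with a fold interval of 0.824 to 1.17, and Npc1 had a log2 fold change of 0.02.

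Other genes of sterol and lipid metabolism gave the same count of calls, 0. Of 17 genes for SREBP processing and sterol uptake and storage, 9 were higher and 8 lower in KO, and their median log2 fold change was 0.01. The smallest p was that of Soat1, which esterifies cholesterol for storage, at 20.03 and 18.4 CPM in WT and 17.0 and 13.3 CPM in KO (log2 fold change -0.35, SE 0.18). Of 10 enzymes of the isoprenoid branch, which makes dolichol, ubiquinone and prenyl groups, 4 were higher and 6 lower, with a median of -0.02. Dhdds and Nus1, the 2 subunits of the enzyme that extends dolichol chains, stood on opposite sides: Dhdds was at 64.5 and 63.1 CPM in WT and 60.2 and 58.7 CPM in KO, and Nus1 at 58.7 and 57.9 CPM in WT and 61.7 and 61.3 CPM in KO. The log2 fold changes were -0.101 (SE 0.0973) and 0.0761 (SE 0.0971), so neither was much larger than its SE. Neither gene's libraries overlapped between genotypes. In the list of 10, both KO libraries lay above both WT libraries for 2 genes (11.5% of all genes did) and below them for 2 (11.9%). Of the sterol carriers, Gramd1c was at 1.58 and 2.11 CPM in WT and 3.20 and 2.28 CPM in KO (log2 fold change 0.57, SE 0.36), a low level at which the groups touched without overlapping.

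Of 16 lipogenic genes, most of them targets of SREBP1, 9 were higher and 7 lower in KO, with a median of 0.04. Both KO libraries lay above both WT libraries for 5 of the 16 (11.5% of all genes did) and below them for 1 (11.9%). Gpam, which starts triglyceride synthesis, was at 18.3 and 17.98 CPM in WT 1 and WT 4 and at 23.7 and 22.1 CPM in KO 5 and KO 6. Both KO libraries were higher by more than the spread within a genotype (log2 fold change 0.34, SE 0.14), yet the edgeR unadjusted p of 0.0451 gave an adjusted p of 0.9999. Acaca, the enzyme that makes malonyl-CoA, was at 103 and 57.0 CPM in WT and at 116 and 112 CPM in KO, so that its log2 fold change of 0.51 (SE 0.25) rests on WT 4. Aacs and Tmem97 had log2 fold changes of 0.17 and 0.18.

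Libraries of the same genotype differed from each other by a median size of the log2 ratio of 0.14 over the 30 genes, both between the WT libraries and between the KO libraries. Over all tested genes these medians were 0.18 and 0.19. A ratio of single libraries varies more than a fold between means of 2, so these are not set against the KO over WT values. The WT 1 over WT 4 ratios were 1.53 for Nr1h3, 0.78 for Abca1 and 0.35 for Pmvk, and the widest of KO 6 over KO 5 was -0.54, for Srebf1. In the authors' deposited tables, 11 of the 30 had an adjusted p under 0.05 in table A (21.2% of all its genes did) and 6 of 30 in table B (12.9%), each p comparing 1 library with 1 library.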

How the data were processed

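The values are from 4 RNA-seq libraries. Per the file headers, the authors deposited whole counts per Ensembl gene, CPM, the ratio (fold change) of KO to WT CPM, its log2, a p-value and an adjusted p-value for each pair of libraries. Without giving roles, the submitters' processing notes list HTSeq 0.6.0, Bowtie2 2.2.3, the build mm9 and TopHat2 2.0.12. The strand setting is not given in the sources used here. The deposited positions are GRCm38: of 20344 genes found in GENCODE M21, 91.57% have its start and end, as do 27 of the 30 members.

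Genes in both tables were passed through filterByExpr, which left 16371, and tested with edgeR 4.0.16 (quasi-likelihood, TMM factors 0.994 to 1.012, genotype as the only term, two-sided, Benjamini-Hochberg, R 4.3.3). CPM in the text are TMM-scaled. Log2 ratios of single libraries use a prior count of 2. With 2 against 2 libraries an exact permutation test of a single gene cannot go below 0.333, so none was run. Replicate libraries differed beyond sampling noise (chi-square per degree of freedom 17.9 for WT and 19.7 for KO). Alternatives were RLE size factors, DESeq2 1.42.0, limma-voom (limma 3.58.1), no filter, a mean count of at least 10, the table as a block, each library left out and, added after seeing the data, a GC offset.

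The members and lists were chosen with earlier results of these data known, so lists are described and not tested. Values in every library are given for the 8 members of smallest p, those whose libraries did not overlap between genotypes, the 4 with the widest ratio within a genotype and the most abundant of each group, and some others; up to 4 genes of smallest p per other list may be named. Lists whose values stand only here are astrocyte and radial glia (8 of 15 higher in KO; 2088, 1827, 2006 and 1853 CPM in WT 1, WT 4, KO 5 and KO 6), neuron (10 of 12 higher), oligodendrocyte precursor (3 of 8; 193, 141, 139 and 167 CPM), red blood cell (6 of 9; 1067, 1011, 768 and 1470 CPM) and immediate early genes (4 of 6; 96.4, 94.8, 106 and 91.0 CPM). Code was tested on simulated counts. Shared sequence was measured as 25-base words of the GENCODE reference transcript found in any other gene; for 7 of the 30 members it was above 10%: Acat2, Hmgcs1, Idi1, Fdps, Fdft1, Scap and Npc1. Their levels, and those of genes that overlap another gene, are uncertain. Plots were made with matplotlib 3.10.9.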

Additional observations from a re-analysis of the deposited data

How the results depend on the processing

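The count of called genes was 2 and became 8 with DESeq2 and 29 with the table as a block, and 5 to 312 with each library left out, highest without WT 4. Members called were 0 in the 7 alternatives that keep all libraries and 0 to 1 with each library left out (Abca1, without WT 4). The genotypes share no replicate numbers, so the deposited table was the block that could be fitted, and it called 0 members. With each library left out, the median log2 fold change ranged from -0.0282 to 0.0396 over all 30 members, -0.0168 to 0.10 over the 18 enzymes, -0.0941 to 0.0902 over the condensing and mevalonate enzymes, 0.0361 to 0.11 over the post-lanosterol enzymes, -0.0783 to 0.14 over the SREBP system and -0.0788 to -0.001 over the sterol transport genes. It ranged from -0.0368 to 0.11 over the isoprenoid to squalene enzymes and from -0.28 to -0.04 over the LXR group.

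Fdps, Cyp51, Tm7sf2, Insig2, Abca1, Abcg1 and Stard4, 7 of the 30 members, kept their direction in all alternatives run. With all libraries kept, 2 members changed sign, Lss (-0.0075 with the GC offset) and Insig1 (0.0014 with limma-voom). The other 23 members changed sign with some library left out. Their lowest and highest log2 fold changes were, in turn, Acat2 -0.11 to 0.0396, Hmgcs1 -0.0941 to 0.11, Mvk -0.27 to 0.17, Pmvk -0.22 to 0.23, Mvd -0.0372 to 0.24, Idi1 -0.0368 to 0.14, Fdft1 -0.0637 to 0.14, Sqle -0.0945 to 0.18, Lss -0.0882 to 0.10, Msmo1 -0.0742 to 0.0304, Nsdhl -0.022 to 0.0608, Hsd17b7 -0.12 to 0.14, and Ebp -0.025 to 0.16, Sc5d -0.017 to 0.0999, Dhcr7 -0.0136 to 0.29, Srebf1 -0.32 to 0.22, Srebf2 -0.0888 to 0.14, Scap -0.0783 to 0.22, Insig1 -0.14 to 0.15, Nr1h2 -0.19 to 0.13, Nr1h3 -0.23 to 1.41, Npc1 -0.0714 to 0.12 and Npc2 -0.0788 to 0.0324. The cause was not tested. The 95% intervals given for members are not limits of detection, since they are unadjusted and calls were adjusted over 16371 genes. With 2 libraries per genotype, Cd93 itself was not called at a log2 fold change of -2.32 (edgeR adjusted p = 0.211). The size of difference needed for a call was not tested. The depth was least for Nr1h3 and Fdps, with 14 to 55 counts per library.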
